A study of Mus musculus with 6 samples.

Results

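The expression of 42 nucleolar genes that process ribosomal RNA and assemble ribosomal subunits was examined in CT26 tumors of mice given H89 or NaCl. The 42 genes were taken by name from the 23557 genes of the deposited table, and all 42 were found there. CT26 is a colorectal carcinoma cell line of the Balb/c mouse, and H89 is a small-molecule inhibitor of several kinases, best known for blocking protein kinase A. The host mice were also of the Balb/c strain. Each mouse, bought as a 7-week-old female, received 500000 CT26 cells under the skin. From day 6 the mice were injected into the peritoneum 2 times a week, with H89 at 10 mg/kg in NaCl in 1 group and with NaCl alone in the other. Tumors were removed 14 days after the cells were injected, with 3 tumors (1 per mouse) in each group, and total RNA of the whole tumor was sequenced. Neither the labels nor the methods name an engineered gene in the mice or the tumor cells, and all 6 tumors came from the same cell line, so the groups compare tumors of 1 line. Whole tumors also hold host cells, and in such bulk RNA fewer cells of a type and less RNA per cell cannot be told apart.

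Ribosomes are made in the nucleolus. RNA polymerase I transcribes a long precursor RNA there, small nucleolar ribonucleoproteins (snoRNPs) guide its chemical modification, and a large set of assembly factors folds and cuts it while ribosomal proteins join. Guide particles are of a pair of kinds: box C/D snoRNPs carry the 2′-O-methyltransferase fibrillarin, and box H/ACA snoRNPs carry the pseudouridine synthase dyskerin. The small subunit processome builds the precursor of the small subunit, and other factors, among them the PeBoW complex, build the large subunit. Many of these genes are known targets of the transcription factor MYC, and fast-growing tumor cells express them strongly.

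Since such genes are known to share short promoter sequences, the promoters were searched first. RefSeq promoters (GRCm38.p6, from 250 bases before to 50 after the annotated start) were found for 36 of the 42 genes, but not for Rrp12, Npm1, Rrs1, Bop1, Nol6 and Fbl. A set of 3 motifs was searched on both strands: the E-box CACGTG, which MYC and MAX bind, the ETS-type motif CCGGAAG, and the cyclic AMP response element TGACGTCA, which CREB, a substrate of protein kinase A, binds. They were counted separately, so a stretch of sequence may count for more than 1 of them. The E-box was present in 7 of the 36 promoters (19.4%), against 22 of 111 promoters (19.8%) of other ribosome biogenesis genes and 1183 of 10375 promoters (11.4%) of all genes tested. The stretches that hold it are shown in capitals with up to 10 bases on either side, from 5′ to 3′ on the strand of the gene, and they lie from 70 bases before to 50 bases after the start.
Wdr43, chr17:71616222-71616247, plus strand: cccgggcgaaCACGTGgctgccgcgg
Utp20, chr10:88826765-88826787, minus strand: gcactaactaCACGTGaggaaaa
Tsr1, chr11:74898094-74898119, plus strand: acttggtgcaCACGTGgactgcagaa
Pes1, chr11:3963967-3963992, plus strand: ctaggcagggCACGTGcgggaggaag
Nop2, chr6:125131813-125131838, plus strand: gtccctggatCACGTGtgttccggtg
Grwd1, chr7:45830740-45830765, minus strand: gccggagtcgCACGTGtgaaaccgga
Mybbp1a, chr11:72441357-72441376, plus strand: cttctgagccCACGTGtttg

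The ETS-type motif was present in 14 of the 36 promoters (38.9%), against 42.3% of other ribosome biogenesis genes and 19.5% of all genes tested. The 60 bases before the start of 4 genes that hold it there are given with the motif, on either strand, in capitals: Nhp2 and Gar1 of the box H/ACA particle, the snoRNP chaperone gene Nolc1, and Heatr1 of the small subunit processome. These starts are those of RefSeq. In the GENCODE M21 annotation Nhp2 begins at 51619735 and Heatr1 at 12395027, so the motifs of both lie inside those spans.
Nhp2, chr11:51619713-51619772, plus strand: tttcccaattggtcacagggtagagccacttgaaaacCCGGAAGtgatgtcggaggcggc
Gar1, chr3:129831397-129831456, minus strand: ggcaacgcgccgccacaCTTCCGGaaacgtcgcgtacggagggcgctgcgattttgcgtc
Nolc1, chr19:46075787-46075846, plus strand: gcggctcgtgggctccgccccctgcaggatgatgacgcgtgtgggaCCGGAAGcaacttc
Heatr1, chr13:12395315-12395374, plus strand: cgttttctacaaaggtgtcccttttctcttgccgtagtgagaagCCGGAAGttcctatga

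The cyclic AMP response element was present in 2 of the 36 promoters (5.56%), those of Noc4l and Ppan, against 4 of 111 of other ribosome biogenesis genes and 3.45% of all genes tested. It is shown in capitals in the 60 bases before each start because H89 is known for blocking the kinase that acts on CREB. The motif of Noc4l also lies inside its GENCODE M21 span, which begins at 110653417 on the minus strand.
Noc4l, chr5:110653383-110653442, minus strand: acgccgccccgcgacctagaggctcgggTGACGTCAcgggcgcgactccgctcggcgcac
Ppan, chr9:20888115-20888174, plus strand: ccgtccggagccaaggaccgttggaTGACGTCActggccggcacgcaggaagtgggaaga

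A motif match describes the sequence and is no evidence of binding in these tumors. The median log2 fold change of H89 against NaCl was -0.12 for the 7 genes with the E-box and -0.13 for the 29 without it, and -0.16 for the 14 genes with the ETS-type motif against -0.10 without it. It was 0.02 for the 2 genes with the cyclic AMP response element and -0.13 for the others. No test was made of these differences.

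The deposited values are estimated read counts, and they are given here as CPM, the count of a gene in relation to the scaled total of its library. Total counts lay between 27067349 and 29067921 in NaCl tumors and between 28548727 and 31958793 in H89 tumors. The 42 genes had between 868 and 24834 counts in any tumor, and 3 tumors per group limit their precision. Of the markers of colon epithelium, Vil1, Cdx1, Cdx2, Cldn3 and Cldn7 were under 1 CPM in every tumor, while Krt20 lay between 94.96 and 103.0 CPM in NaCl and between 65.8 and 81.4 CPM in H89 tumors.

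All 42 genes passed the filter of a mean of at least 0.5 CPM. Per kilobase of the annotated principal transcript, Npm1, the gene of the nucleolar chaperone nucleophosmin, had the highest mean level over the 6 tumors, 469 CPM per kb. It was followed by the box C/D genes Nop56 with 169 CPM per kb and Fbl with 127 CPM per kb. The lowest levels per length were 9.14 CPM per kb for Heatr1 and 8.69 CPM per kb for Utp20, both genes of very large proteins of the small subunit processome. The median of the 42 genes lay at the 81.6th percentile of all genes tested, and the lowest at the 47.3rd. The level of Ncl, nucleolin, was 95.3 CPM per kb and depends on its long annotated transcript of 8202 bases.

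The question was whether H89 changed this program. No gene of the 42 had a Benjamini-Hochberg adjusted p under 0.05 in edgeR's quasi-likelihood test over the 13118 genes tested, where 0.724% of genes were lower and 0.861% higher at that threshold. All p-values of single genes given below are from that test, save those under quantile normalization, which are limma's, with adjustment over all genes tested, and SE is the standard error of the log2 fold change. At an unadjusted p under 0.05, 9 of the 42 genes were lower in H89 tumors and 0 were higher. Of all genes tested, 11.9% were lower and 13.1% higher by the same rule. The log2 fold change was below 0 for 34 genes (81.0%) and above 0 for 8, with a median of -0.13 and a range of -0.34 to 0.14, where 49.4% of all genes tested were below 0 and their median was 0.004. DESeq2's Wald test put 3 genes, Nol6, Pes1 and Fbl, under an adjusted p of 0.05, all lower in H89, and 5.68% of the genes it tested were lower by that rule. The set of genes under an unadjusted p of 0.05 depended on the processing. After correction for transcript length and GC content 9 genes again passed, all lower, with Utp14a, Nip7 and Pa2g4 in place of Fbl, Nhp2 and Noc2l. With library size as the only scaling Bysl, Nolc1, Noc2l and Ddx21 no longer did, at an unadjusted p of 0.0640, 0.0725, 0.148 and 0.144.

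Abundant genes as a whole had a lower median than all genes tested, and the 42 genes are abundant. Among the 5679 genes with a mean CPM at least that of the least abundant of the 42, a comparison chosen after the values were seen, 20.1% were lower and 8.29% higher at an unadjusted p under 0.05. The 9 of 42 genes that were lower, 21.4%, are near this share. With adjustment, 1.20% of these abundant genes were lower and 1.00% higher. Of the same genes 64.2% were below 0, and their median log2 fold change was -0.08. The median of the 42 genes, -0.13, was lower than both medians, and no test of the list was made. With library size as the only scaling the 42 genes had a median of -0.07, the abundant genes one of -0.009 and all genes one of 0.08. Without H89 tumor 3 the order turned, with -0.06 for the 42 genes and -0.08 for the abundant genes.

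**Figure D1:**
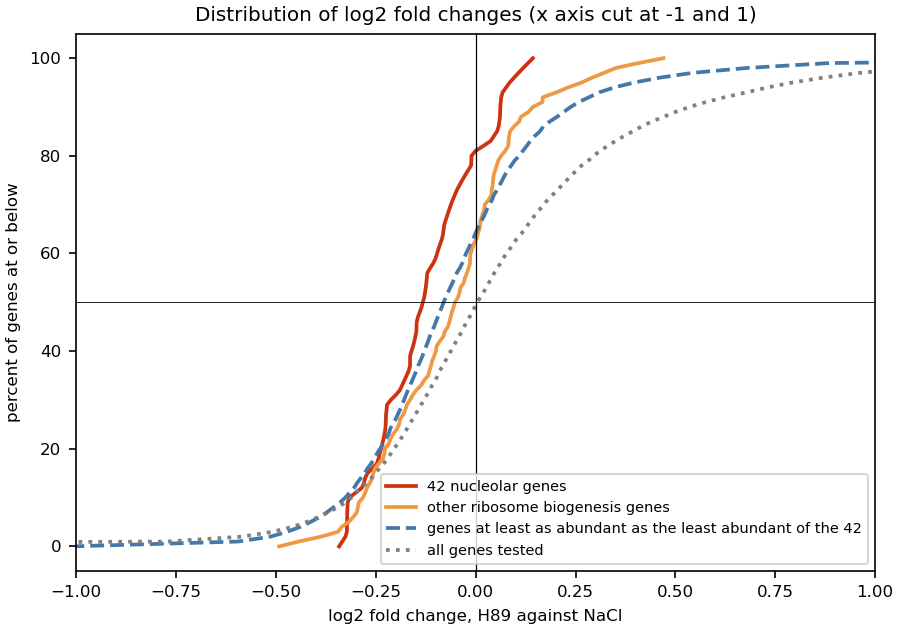
Cumulative distribution of the log2 fold change of H89 against NaCl (x axis, from -1 to 1) for the 42 nucleolar genes, the 133 other ribosome biogenesis genes tested, the 5679 genes at least as abundant as the least abundant of the 42, and all 13118 genes tested (y axis, percent of genes at or below a value). The curve of the 42 genes crosses 50% at -0.13, that of the abundant genes at -0.08 and that of all genes near 0, and the 42 genes span a narrow range.

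The groups overlapped for most of the 42 genes. Every H89 tumor was below every NaCl tumor for 10 genes (23.8%), namely Fbl, Nhp2, Nop10, Nol6, Pwp2, Bysl, Pes1, Noc2l, Ddx21 and Pa2g4, and above every NaCl tumor for 0 genes. This was the case for 15.5% of all genes tested in the downward and 15.2% in the upward direction. It was so for 25.1% and 8.86% of the genes at least as abundant as the least abundant of the 42. For a single gene with no overlap between 3 and 3 tumors the exact two-sided permutation test gives p = 0.1, the smallest it can give.

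**Figure D2:**
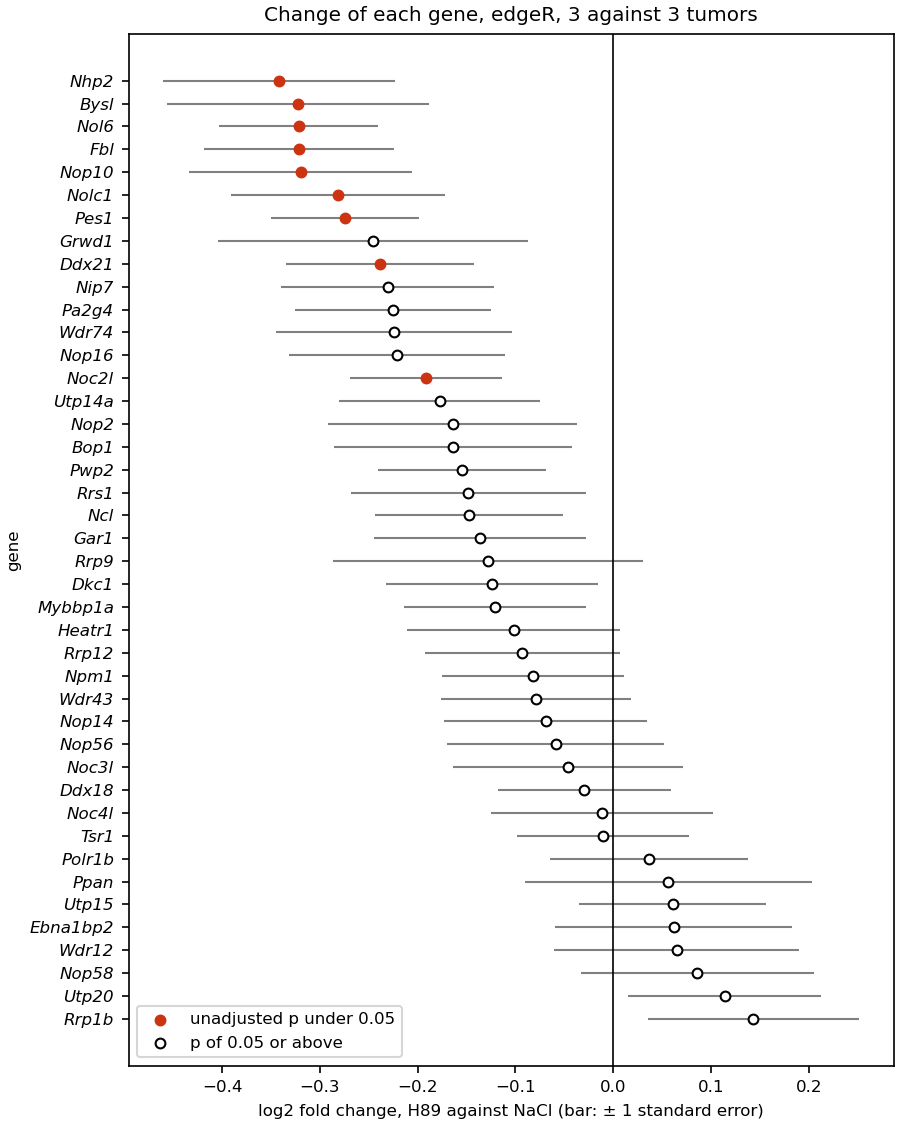
Log2 fold change of H89 against NaCl (x axis) of each of the 42 genes (y axis), with bars of 1 standard error from edgeR's quasi-likelihood fit of 3 against 3 tumors. Filled points mark the 9 genes with an unadjusted p under 0.05, which all lie between -0.34 and -0.19, and the 8 genes above 0 reach 0.14.

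The core proteins of the box C/D particle differed in their values. Fbl encodes fibrillarin, the methyltransferase that uses the box C/D guide RNAs, and lies at chr7:28169710-28179269 (plus strand, GRCm38, GENCODE M21, as all gene positions here). Fbl had a CPM of 159.4, 173.9 and 175.2 in NaCl tumors 1 to 3 and 151.2, 126.1 and 129.8 in H89 tumors 1 to 3. All H89 values of Fbl were below all NaCl values, with a log2 fold change of -0.32 (SE 0.097, unadjusted p = 0.0110 and adjusted p = 0.106). After correction for transcript length and GC content it was -0.18 and the unadjusted p was 0.0769. Nop56 and Nop58 encode the paired scaffold proteins to which fibrillarin binds. Nop56 had a CPM of 301.5, 342.1 and 328.0 in NaCl and 346.4, 316.9 and 269.5 in H89 tumors. Nop58 had a CPM of 134.3, 163.3 and 156.1 in NaCl and 177.4, 165.2 and 139.1 in H89 tumors. The groups overlapped for both scaffold genes, with log2 fold changes of -0.06 (SE 0.11) for Nop56 and 0.09 (SE 0.12) for Nop58, and that of Nop56 was above 0 under quantile normalization (0.05) and with library size as the only scaling (0.006).

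The 4 core genes of the box H/ACA particle were all below 0, with a median log2 fold change of -0.23. Nhp2 and Nop10 encode small proteins that bind the guide RNA and the catalytic subunit. Nhp2 (chr11:51619735-51623714, plus strand) had a CPM of 99.4, 120.6 and 109.8 in NaCl and 94.4, 91.9 and 74.1 in H89 tumors. Its log2 fold change of -0.34 was the lowest of the 42 genes (SE 0.12, unadjusted p = 0.0206 and adjusted p = 0.135). After correction for length and GC content it was -0.21 (unadjusted p = 0.0617), and genes such as Bysl (-0.30) and Ddx21 (-0.32) were lower. Nop10 (chr2:112261926-112263269, plus strand) had a CPM of 67.2, 73.8 and 68.7 in NaCl and 63.9, 56.4 and 47.8 in H89 tumors. The values of both genes did not overlap between groups, and H89 tumor 3 was the lowest for each. Nop10 had a log2 fold change of -0.32 (SE 0.11, unadjusted p = 0.0235 and adjusted p = 0.144). Without H89 tumor 3, neither gene had an unadjusted p under 0.05, and the same held without NaCl tumor 2 and, for Nop10, without H89 tumor 2.

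Dkc1 encodes dyskerin, the pseudouridine synthase itself, and Gar1 the subunit that regulates release of the substrate. Dkc1 had a CPM of 79.0, 98.4 and 91.8 in NaCl and 85.2, 87.7 and 74.2 in H89 tumors. Gar1 had a CPM of 55.2, 57.3 and 58.3 in NaCl and 59.6, 50.5 and 45.4 in H89 tumors. The groups overlapped for both, at a log2 fold change of -0.12 (SE 0.11) for Dkc1 and -0.14 (SE 0.11) for Gar1. These became -0.21 and -0.007 after correction for length and GC content, so the order of the pair turned.

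Of the 13 genes of small subunit assembly, 2 (15.4%) had an unadjusted p under 0.05, both lower. By that rule 11.9% of all genes tested and 20.1% of the abundant genes were lower. The median log2 fold change was -0.09, against 0.004 for all genes tested and -0.08 for the abundant genes. Nol6 encodes a nucleolar protein of the processome (chr4:41114427-41124455, minus strand) and had the smallest p of the 42 genes. Nol6 had a CPM of 107.8, 105.9 and 96.5 in NaCl and 84.0, 85.6 and 78.6 in H89 tumors. Every H89 tumor was below every NaCl tumor, with a log2 fold change of -0.32 (SE 0.081, unadjusted p = 0.00423 and adjusted p = 0.0802). The unadjusted p of Nol6 remained under 0.05 with any single tumor left out, as did those of Fbl and Pes1 and of no other gene among the 9, and those of Nol6 and Pes1, but not that of Fbl, also did after the length and GC correction. Bysl, the gene of bystin, which acts on late precursors of the small subunit, had a log2 fold change of -0.32 (SE 0.13) that passed the unadjusted threshold in 1 of the 6 fits with a tumor left out, the one without H89 tumor 1. With a filter of 5 CPM the unadjusted p of Bysl was 0.0555.

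Wdr43, the most abundant gene of small subunit assembly by CPM, had values of 114.8, 136.1 and 139.6 CPM in NaCl and 128.2, 123.7 and 117.8 CPM in H89 tumors, which overlapped (log2 fold change -0.08, SE 0.097). Utp20, the gene of a large scaffold protein of the processome, had a CPM of 64.9, 75.9 and 80.2 in NaCl and 74.9, 81.1 and 83.1 in H89 tumors. Utp15, whose product belongs to the subcomplex that links the processome to transcription by RNA polymerase I, had a CPM of 37.4, 39.6 and 40.6 in NaCl and 44.3, 41.6 and 36.8 in H89 tumors. Both overlapped between groups and had log2 fold changes above 0, of 0.11 (SE 0.099) and 0.06 (SE 0.095), which were -0.002 and -0.02 after correction for transcript length and GC content. The remaining genes of this class had log2 fold changes of -0.18 (Utp14a), -0.15 (Pwp2), -0.13 (Rrp9), -0.10 (Heatr1), -0.09 (Rrp12), -0.07 (Nop14), -0.011 (Noc4l) and -0.010 (Tsr1), and those of Noc4l and Tsr1 were above 0 under quantile normalization, with library size alone and with a filter of 5 CPM.

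**Figure D3:**
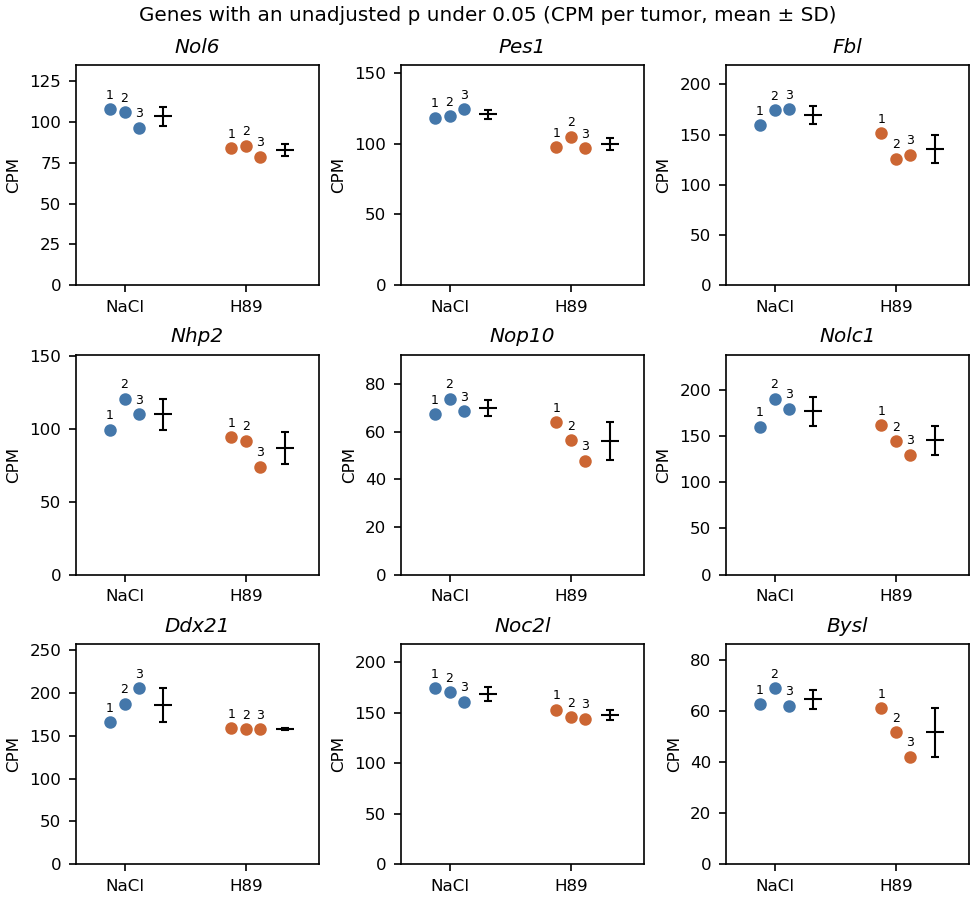
CPM (y axis, from 0) of the 9 genes with an unadjusted p under 0.05 in each NaCl (blue) and H89 (orange) tumor, numbered 1 to 3, with the mean and SD of 3 tumors in black. The groups do not overlap for 8 of the 9 genes, and for Nolc1 H89 tumor 1 (161.6 CPM) lies above NaCl tumor 1 (160.1 CPM).

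Of the 15 genes of large subunit assembly, 2 (13.3%) had an unadjusted p under 0.05, both lower. By that rule 11.9% of all genes tested and 20.1% of the abundant genes were lower. The median log2 fold change was -0.16, against 0.004 for all genes tested and -0.08 for the abundant genes. The PeBoW complex, which is needed to mature the RNAs of the large subunit, consists of the products of Pes1, Bop1 and Wdr12. Pes1 (chr11:3963975-3980004, plus strand) had a CPM of 118.3, 119.5 and 124.5 in NaCl and 97.7, 105.0 and 96.8 in H89 tumors, with no overlap. Its log2 fold change was -0.27 (SE 0.076, unadjusted p = 0.00683 and adjusted p = 0.0903). Its partners overlapped between groups. Bop1 had a CPM of 107.8, 109.4 and 94.5 in NaCl and 107.6, 90.8 and 79.8 in H89 tumors (log2 fold change -0.16, SE 0.12). Wdr12 had a CPM of 39.0, 48.5 and 47.0 in NaCl and 53.0, 46.8 and 41.0 in H89 tumors (log2 fold change 0.06, SE 0.12, and -0.02 after correction for length and GC content). Among the 3 genes of this complex, Pes1 thus had the smallest spread and the only unadjusted p under 0.05.

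Noc2l, whose product escorts large subunit precursors from the nucleolus to the nucleoplasm, was the most abundant gene of the class by CPM. Noc2l had values of 174.4, 170.6 and 161.2 CPM in NaCl and 153.1, 145.9 and 144.3 CPM in H89 tumors, with no overlap (log2 fold change -0.19, SE 0.078, unadjusted p = 0.0396 and adjusted p = 0.180). The unadjusted p of Noc2l was above 0.05 without NaCl tumor 1, NaCl tumor 2, H89 tumor 2 or H89 tumor 3, and reached 0.114. In edgeR it was also above 0.05 after correction for length and GC content (log2 fold change -0.12, unadjusted p = 0.0762), with library size alone (-0.12, unadjusted p = 0.148) and with a filter of 5 CPM (-0.16, unadjusted p = 0.0659). In limma under quantile normalization Noc2l was at -0.11 (unadjusted p = 0.140). Rrp1b and Ebna1bp2, which encode partner proteins of the early large subunit precursor, were among the genes above 0. Rrp1b had a CPM of 47.9, 56.2 and 49.1 in NaCl and 59.3, 60.4 and 49.5 in H89 tumors, the highest log2 fold change of the 42 genes (0.14, SE 0.11, unadjusted p = 0.222). Ebna1bp2 had a CPM of 67.8, 70.2 and 68.0 in NaCl and 84.9, 69.2 and 61.0 in H89 tumors (log2 fold change 0.06, SE 0.12). The groups overlapped for both, and without H89 tumor 1 the log2 fold change of Ebna1bp2 was -0.08. The other genes of the class had log2 fold changes of -0.25 (Grwd1), -0.23 (Nip7), -0.22 (Wdr74), -0.22 (Nop16), -0.16 (Nop2), -0.15 (Rrs1), -0.05 (Noc3l), -0.03 (Ddx18) and 0.06 (Ppan). None of them had an unadjusted p under 0.05. Noc3l was above 0 with library size alone, Ddx18 was above 0 with library size alone and under quantile normalization, and Ppan was at -0.09 without H89 tumor 1.

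The last class holds Polr1b, which encodes the second largest subunit of RNA polymerase I, and the genes of abundant nucleolar chaperones and regulators. Nolc1 encodes Nopp140, a chaperone of snoRNPs (chr19:46075863-46085530, plus strand). Nolc1 had a CPM of 160.1, 190.4 and 179.7 in NaCl and 161.6, 144.6 and 130.0 in H89 tumors. H89 tumor 1 lay within the NaCl range, and the log2 fold change was -0.28 (SE 0.11, unadjusted p = 0.0334 and adjusted p = 0.168). Ddx21, an RNA helicase of RNA polymerase I transcription and rRNA processing, was at -0.24 (SE 0.096, unadjusted p = 0.0381 and adjusted p = 0.177), and the unadjusted p of Nolc1 and of Ddx21 was above 0.05 without NaCl tumor 2, NaCl tumor 3, H89 tumor 2 or H89 tumor 3, and that of Ddx21 also without H89 tumor 1. In limma under quantile normalization Nolc1 was at -0.20 (unadjusted p = 0.110) and Ddx21 at -0.14 (unadjusted p = 0.191). In edgeR, Nolc1 had an unadjusted p of 0.0525 with the replicate number as a block, and Ddx21 one of 0.0632 with a filter of 5 CPM. Pa2g4, a growth-regulated RNA-binding protein of the nucleolus, was at -0.23 (SE 0.10, unadjusted p = 0.0546). Ncl encodes nucleolin, a major protein of the nucleolus, and had the highest mean CPM of the 42 genes. Ncl had a CPM of 758, 833 and 875 in NaCl and 786, 755 and 685 in H89 tumors, which overlapped. Ncl, Mybbp1a, Npm1 and Polr1b had log2 fold changes of -0.15, -0.12, -0.08 and 0.04, and those of Ncl, Mybbp1a and Npm1 were 0.07, 0.01 and 0.15 under quantile normalization.

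Tumors of the same group differed in their levels of the 42 genes. The median deviation of the 42 genes from their mean over the 6 tumors was -0.04, 0.13 and 0.10 on the log2 scale in NaCl tumors 1 to 3, and 0.05, -0.05 and -0.19 in H89 tumors 1 to 3. H89 tumor 3 had the lowest value of the 6 tumors for 29 of the 42 genes, and NaCl tumor 1 had the lowest for 10. Within the NaCl group, tumor 1 was the lowest for 35 genes, and within the H89 group, tumor 1 was the highest for 32 genes. The summed CPM of the 42 genes was 5433, 6061 and 6025 in NaCl and 5695, 5401 and 4898 in H89 tumors, so that H89 tumor 1 lay above NaCl tumor 1. Without H89 tumor 3 the median log2 fold change was -0.06 and 3 genes had an unadjusted p under 0.05. Without H89 tumor 1 the median was -0.19, with -0.08 for the abundant genes, and 16 genes did, all lower. For fits with a tumor left out no share over all genes tested is given, so these counts have no background here. The median SD of a gene on the log2 scale was 0.120 in NaCl and 0.138 in H89 tumors, against 0.134 and 0.151 over all genes tested. It was 0.106 and 0.121 over the genes at least as abundant as the least abundant of the 42.

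**Figure D4:**
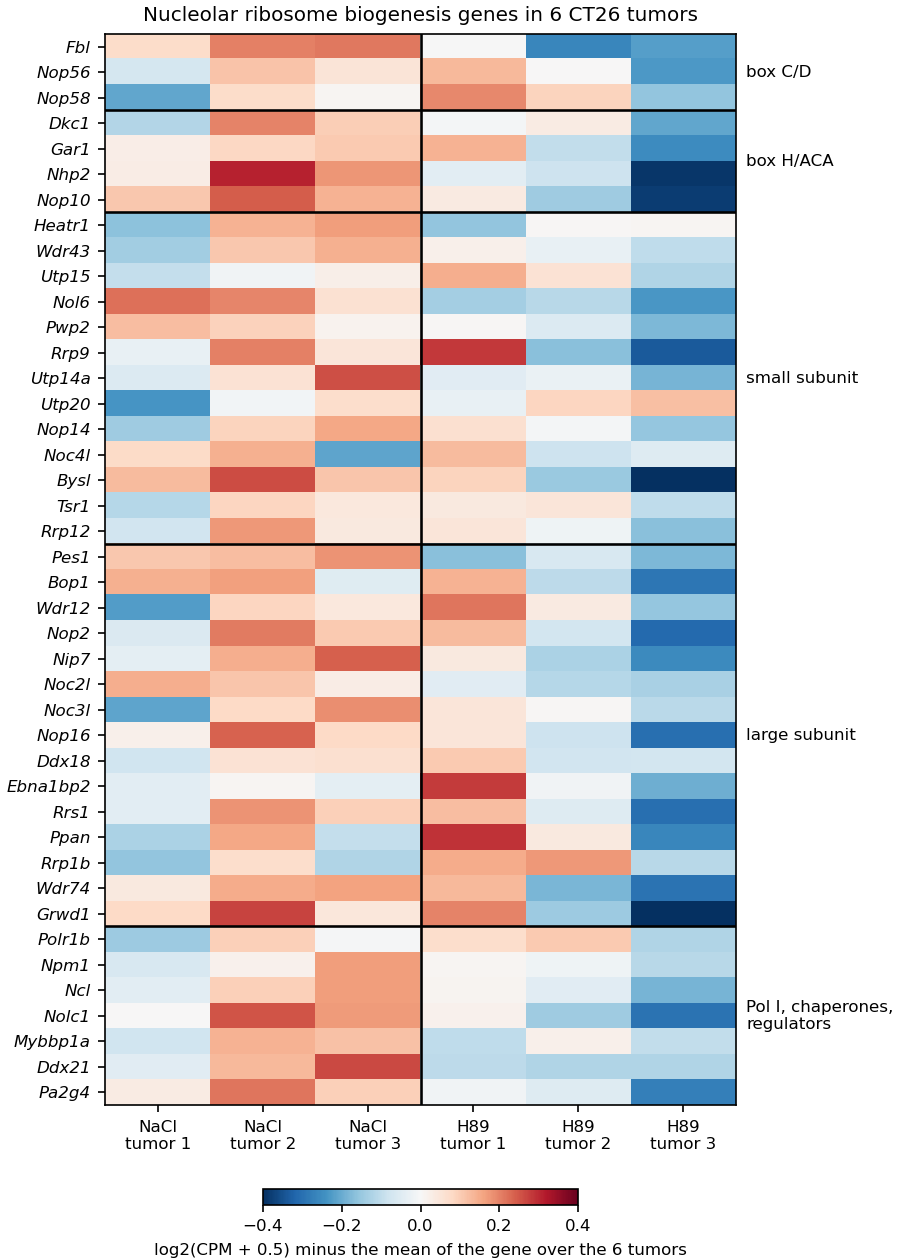
Level of each of the 42 genes (rows, by class) in the 6 tumors (columns), as log2(CPM + 0.5) minus the mean of the gene over the 6 tumors, with colors saturating at -0.4 and 0.4. NaCl tumors 2 and 3 are mostly red, H89 tumor 3 is mostly blue and holds the lowest value of 29 genes, and NaCl tumor 1 and H89 tumor 1 are mixed.

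Markers of other cells also differed between the tumors. The summed CPM of 11 T cell markers was 44.2, 24.5 and 18.9 in NaCl and 67.6, 38.9 and 93.9 in H89 tumors. These sums overlapped between groups, and the highest was in H89 tumor 3. In edgeR's test 8 of the 11 were higher at an unadjusted p under 0.05. Of all genes tested, 11.9% were lower and 13.1% higher by that rule. The sum of 8 fibroblast markers lay between 2574 and 2799 in NaCl and between 2879 and 3669 in H89 tumors. The sum of 9 keratinocyte markers lay between 46.1 and 73.5 in NaCl and between 15.0 and 18.5 in H89 tumors, but Krt1, Krt5, Krt14, Lor, Ivl and Dsg1a were under 1 CPM in every tumor and the difference lay in Cdsn, between 43.1 and 69.7 in NaCl and between 10.3 and 14.3 in H89 tumors. That of 12 colon epithelium markers lay between 115.7 and 130.2 in NaCl and between 85.4 and 99.9 in H89 tumors, and without Krt20 the groups overlapped, at 20.7 to 32.3 and 18.5 to 23.5. Without Krt18 and Krt20 the order turned, with the other 10 markers at 7.35 to 10.5 in NaCl and 10.7 to 15.2 in H89 tumors. The sums of macrophage, neutrophil, endothelial, skeletal muscle and adipocyte markers overlapped between groups. H89 tumor 1 stood out in skeletal muscle markers, with a sum of 25.2 CPM. That sum was 4.41 and 2.77 CPM in H89 tumors 2 and 3, and 2.74 to 4.46 CPM in NaCl tumors. The 14 proliferation genes summed to 1796 to 1968 CPM in NaCl and 1890 to 2088 CPM in H89 tumors, and 0 of them had an unadjusted p under 0.05 in edgeR's test. The part of these cells in the values of the 42 genes was not tested.

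The ratio of 2 partners of a complex within a tumor does not depend on the scaling of the libraries, and 12 such ratios were computed after the values had been seen. The ratio of the estimated counts of Fbl to Nop58 was 1.19, 1.07 and 1.12 in NaCl and 0.852, 0.763 and 0.933 in H89 tumors, a difference of -0.41 on the log2 scale. For Pes1 to Wdr12 the ratio was 3.03, 2.47 and 2.65 in NaCl and 1.84, 2.24 and 2.36 in H89 tumors, a difference of -0.34. The groups did not overlap for 6 of the 12 ratios (exact permutation test, two-sided, p = 0.1 each, the smallest it can give, and 0.2 after Benjamini-Hochberg adjustment over the 12). Ratios of the same complex share genes, so the 12 are not separate results, and no share over other pairs of genes is given. After correction of each tumor for transcript length and GC content, 0 of these 6 ratios were free of overlap, and the differences were -0.20 for Fbl to Nop58 and -0.24 for Pes1 to Wdr12. Another 2 ratios were then free of overlap, Gar1 to Nhp2 with a difference of 0.20 and Pes1 to Bop1 with -0.18. The ratio of Dkc1 to Nhp2, which was higher in H89 by 0.22, differed by -0.004 after that correction.

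**Figure D5:**
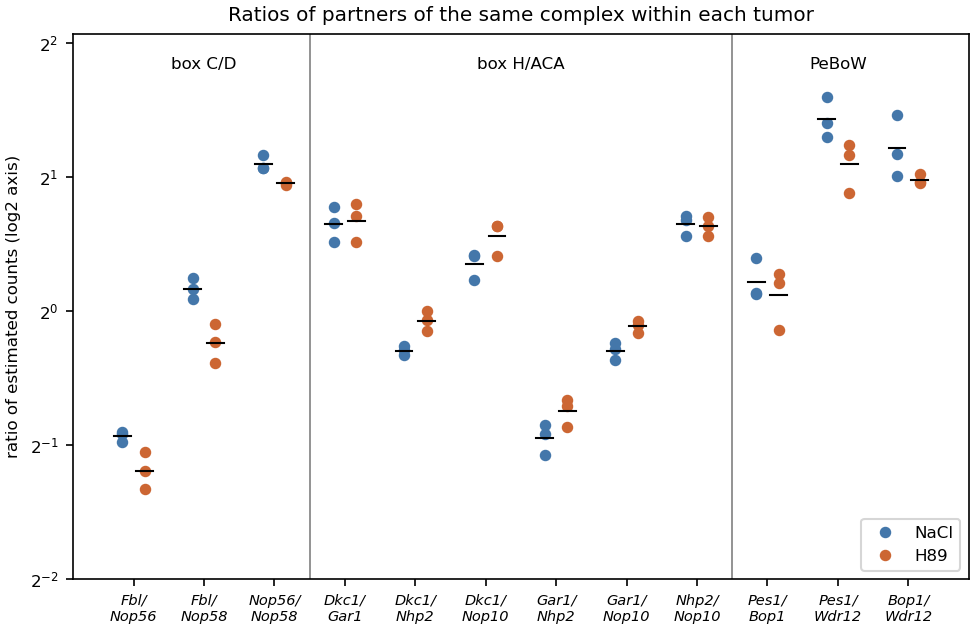
Ratio of the estimated counts of 2 partners of the same complex in each tumor (y axis, log2 scale) for 3 pairs of the box C/D particle, 6 of the box H/ACA particle and 3 of PeBoW (x axis), with NaCl in blue, H89 in orange and the mean on the log2 scale as a black line. Before correction for transcript length and GC content the groups are apart for 6 of the 12 pairs, such as Fbl/Nop58, and after it for 0 of those 6 and for 2 others, Gar1/Nhp2 and Pes1/Bop1.

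Some of the genes hold genes of guide RNAs. An annotated snoRNA gene lay inside 7 of the 42 genes (16.7%), Nop56, Nop58, Dkc1, Wdr43, Tsr1, Ppan and Ncl, which together hold 20 snoRNA genes, against 212 of 12920 genes tested with a match in the annotation (1.64%). The introns of such host genes are a known source of snoRNAs. The median log2 fold change was -0.06 for the 7 host genes and -0.15 for the other 35. Exons of 17 of the 42 genes, among them Nhp2, Bysl, Pes1 and Noc2l, overlap a gene on the opposite strand, and whether the counting used strand is not given in the sources used here. Exons overlapped another gene on either strand in 17 of the 42 genes (40.5%) and in 4351 of 12920 genes tested with a match in the annotation (33.7%). In 20 genes the estimated count lay more than 0.01 from a whole number in some tumor, as happens where reads are divided between transcripts of related genes.

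The wider pathway was examined with 135 other ribosome biogenesis genes, of which 133 passed the filter. At an unadjusted p under 0.05, 21 were lower (15.8%) and 8 higher (6.02%) in H89 tumors, and the median log2 fold change was -0.05. For all genes tested these shares were 11.9% and 13.1%, and for the abundant genes 20.1% and 8.29%. Without H89 tumor 1, 40 were lower and 4 higher, and without H89 tumor 2, 16 were lower and 3 higher. The shares over all genes tested are not given for these fits. With all 6 tumors and Benjamini-Hochberg adjustment, 2 of the 133 fell and 0 rose. By that rule 0.724% of all genes tested were lower and 0.861% higher, and 1.20% and 1.00% of the abundant genes. By group, 7 of 49 other small subunit factors were lower and 1 higher, 11 of 48 other large subunit factors were lower and 5 higher, and 3 of 14 other genes of RNA polymerase I transcription were lower and 2 higher. Of 13 genes of the RNA exosome, which trims precursor RNAs, and 9 genes of snoRNP assembly, 0 passed the unadjusted threshold in edgeR's test.

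Polr1d, a subunit shared by RNA polymerases I and III, fell from 122.4 ± 5.26 CPM to 87.0 ± 0.255 CPM (SD, n = 3 per group), or a log2 fold change of -0.49 (SE 0.074, adjusted p = 0.0407). Nop53, a late factor of the large subunit, fell from 267 ± 15.7 CPM to 193.8 ± 10.7 CPM (SD, n = 3 per group), or a log2 fold change of -0.46 (SE 0.087, adjusted p = 0.0488). Ubtf, the gene of the upstream binding factor that activates the ribosomal RNA promoter, followed by p, with 154.6 ± 5.54 CPM in NaCl and 118.9 ± 7.15 CPM in H89 tumors (SD, n = 3 each, log2 fold change -0.38, adjusted p = 0.0620). For each of these 3 genes every H89 tumor was below every NaCl tumor. With any 1 tumor left out, Polr1d and Nop53 no longer passed, at adjusted p from 0.0667 to 0.142 and from 0.0681 to 0.149, with log2 fold changes from -0.53 to -0.47 and from -0.51 to -0.42.

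Among the genes that were higher, Taf1d, a subunit of the selectivity factor of RNA polymerase I, had 34.2 ± 2.66 CPM in NaCl and 47.4 ± 7.18 CPM in H89 tumors (SD, n = 3 each), or a log2 fold change of 0.47 (adjusted p = 0.0868). Nvl, an ATPase that releases factors from large subunit precursors, was at 0.35 (adjusted p = 0.0896), and Urb1, a factor of the large subunit, at 0.30 (adjusted p = 0.127). Genes of RNA polymerase I transcription were thus found at both ends of the pathway list. Myc had a CPM of 199.9, 203.6 and 198.7 in NaCl and 159.7, 163.7 and 138.0 in H89 tumors, with no overlap, a log2 fold change of -0.38 (SE 0.090, adjusted p = 0.0722).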

How the data were processed

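Whole CT26 tumors (3 NaCl, 3 H89) were sequenced by the study on the BGISEQ-500 platform. The submitters' processing notes name kallisto, DESeq2 and GRCm38. The authors deposited 1 table of 23557 genes that is called TPM, but its values are estimated counts: they sum to 27067349 to 31958793 per tumor, and 58.6% to 61.4% of those above 0 lie within 0.01 of a whole number. A record names 277 gene columns one by one, and the other 23280 were read in the same way.

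Estimated counts were rounded, genes with a mean of at least 0.5 CPM (13118) were kept, and H89 was compared with NaCl by edgeR 4.0.16 (R 4.3.3; TMM, glmQLFit, glmQLFTest, treatment as the only term, Benjamini-Hochberg adjustment over all genes tested). Standard errors were obtained by dividing the size of the log2 fold change by the root of the F statistic. The p-values rest on 3 mice per group. The test was checked on simulated data. The members and gene lists were chosen with earlier results of these data known. Values in every tumor are given for the 6 genes below and the 6 above 0 with the smallest p, the most abundant gene of each class, and the cores of the snoRNPs and PeBoW, and 3 pathway genes by p in each direction and Myc are named. Transcript lengths and GC content are those of the shortest principal transcript in GENCODE M21. For genes without a principal transcript the longest protein-coding transcript was taken, or else the longest of any type. Alternatives were other scalings and filters, limma 3.58.1, DESeq2 1.42.0, a replicate block, a loess correction (span 0.3) for length and GC content, and each tumor left out. Planned protein features were not computed.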

Additional observations from a re-analysis of the deposited data

How the results depend on the processing

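With 3 tumors a group the precision is limited. DESeq2 put 3 of the 42 genes under an adjusted p of 0.05 instead of 0. With library size as the only scaling, 5 genes had an unadjusted p under 0.05 instead of 9. Leaving out 1 tumor gave 3 to 16 such genes (3 without NaCl tumor 2 or H89 tumor 3, 4 without H89 tumor 2, 6 without NaCl tumor 3, 16 without H89 tumor 1), 0 to 0 with adjustment, a median log2 fold change of -0.193 to -0.058, 19 to 44 other pathway genes (44 without H89 tumor 1 and 19 without H89 tumor 2) and 11 to 23 non-overlapping genes, where fewer values are compared. The labels do not say whether the replicate numbers pair the tumors. Correlations of same-numbered tumors, in their deviations from the group means, were 0.163, 0.061 and -0.025. Those of other pairs lay between -0.373 and 0.350, so these values cannot decide it. With the replicate block 9 genes had an unadjusted p under 0.05, 34 other pathway genes did, and the median was -0.146. Over 17 alternatives, 26 genes were below 0 in each, 2 above 0 in each and 14 on both sides, and the 9 genes with an unadjusted p under 0.05 were below 0 in each. The sign changed for Nop56 (0.0064 with library size alone, 0.054 with quantile normalization, -0.143 to 0.033 with a tumor left out), Noc4l (0.064 after the length and GC correction, 0.057, 0.016, 0.020 with a mean of 5 CPM, -0.112 to 0.059), Tsr1 (0.058, 0.022, 0.021, -0.068 to 0.036), Ddx18 (0.038, 0.035, 0.0013, -0.091 to 0.0024), Noc3l (0.021 with library size alone, -0.154 to 0.041), Npm1, Ncl and Mybbp1a (0.146, 0.069 and 0.0099 with quantile normalization), Utp15, Utp20 and Wdr12 (-0.025, -0.0022 and -0.023 after the length and GC correction), and, with a tumor left out, Wdr12 (-0.030 to 0.152), Ebna1bp2 (-0.076 to 0.164), Ppan (-0.086 to 0.185) and Polr1b (-0.026 to 0.102). The Dkc1 to Nhp2 ratio, added after seeing the data, was -0.0037 after that correction, also added later for the ratios. Apart from DESeq2, no share over all genes tested is given for these alternatives. The causes were not tested.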
